A study of Mus musculus with 8 samples.

Results

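The genes described here belong to the insulin-like growth factor (IGF) axis: the ligand gene Igf1, the receptor genes Igf1r and Igf2r, and 6 genes for IGF binding proteins, Igfbp2, Igfbp3, Igfbp4, Igfbp5, Igfbp6 and Igfbp7. They were found by symbol, and all 9 were present among the 24619 gene entries. The set was chosen by measured values, namely the genotype differences in both assays, with Igfbp2 and Igfbp3 picked out for theirs. Values for miR-379KO against WT are therefore given for these 9 genes as a description, without a p-value.

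IGF1 is a secreted peptide that signals through the receptor tyrosine kinase IGF1R and, below it, through IRS adaptors, PI3-kinase and AKT. IGF2R, the cation-independent mannose 6-phosphate receptor, takes up IGF2 and sorts lysosomal enzymes. IGF binding proteins are secreted carriers that hold IGFs away from, or deliver them to, the receptor, and cultured mesangial cells are known to secrete several of them.

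The study measured RNA in primary mouse glomerular mesangial cells (MMC), the contractile cells between the capillaries of the kidney filter, from wild-type mice (WT) and from mice homozygous for a deletion at miR-379 made by CRISPR-Cas9 (miR-379KO). Per the study's methods the mice were C57BL/6J and the cells were grown from pooled glomeruli collected by sieving. The methods do not say whether glomeruli of different mice were combined, and the labels call the cells untreated. Each genotype was measured by total RNA sequencing (stranded mRNA libraries) and by AGO2-IP, in which RNA was recovered from UV cross-linked lysates with antibody against AGO2, an Argonaute protein that carries microRNAs to their targets. Each genotype in each assay formed a group, giving 4 groups with replicates A and B and 8 libraries in all. The study calls the replicates independent samples, but no source used here ties them to particular mice, so p-values measure only the spread between these samples.

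Gene counts summed to between 17168113 and 22660600 a library in total RNA and between 5587494 and 17094958 in AGO2-IP, where the ribosomal RNA entry Rn45s and Lars2 took most of them and 1115665 to 1874974 remained for all other genes. The AGO2-IP libraries also differed by genotype as a whole. Reads outside genes made up 46.6% and 49.7% of uniquely placed reads for WT, compared with 73.4% and 76.4% for miR-379KO, and 5231 protein-coding genes without a count in total RNA received 1.34 and 0.908 counts per kb of exon in the WT libraries and 3.07 and 3.50 in the miR-379KO libraries of this assay. The microRNA's own entry, Mir379, had 0 counts in the 4 total RNA libraries, 0 and 4 in WT AGO2-IP and 1 and 0 in miR-379KO AGO2-IP, too few to check the genotype. All 8 mesangial and pericyte markers examined had counts in each total RNA library, with summed levels of 11331 to 17914 CPM, led by Acta2 and Tagln. In these libraries markers of endothelium summed to at most 2.09 CPM and of leukocytes to at most 4.27 CPM. Podocyte markers summed to 240.2 to 628.1 CPM through Synpo, Wt1 and Podxl. CPM here are counts put on a common library total by TMM scaling within the assay, so they are not comparable between the assays.

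miR-379-5p, the microRNA whose gene was deleted, is shown with its seed (bases 2 to 8) in capitals, since the seed defines the letters searched for in the 3′-UTRs of these genes. The mature sequence is from RefSeq and lies at chr12:109709065-109709085 on the plus strand of GRCm38.p6.
miR-379-5p: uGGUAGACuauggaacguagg

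A 7-base match to the seed is GTCTACC, and a shorter 6-base match contained in it is TCTACC, both read on the transcript strand. Igf1r was the only gene of the 9 with a 7-base match, at base 1403 of its 7266-base 3′-UTR, and it held 3 of the 6-base matches in all. Igf1 and Igfbp4 held 1 of the 6-base matches each, and the other 6 genes held none. The windows are shown 5′ to 3′ with the matching bases in capitals, at chr7:68227793-68227820, chr10:87932077-87932104 and chr11:99052516-99052543, all on the plus strand of GRCm38.p6.
Igf1r: gaaactttcagGTCTACCccttcttcct
Igf1: ggcaatatgtcaTCTACCtacctcaaag
Igfbp4: tatcccgccatcTCTACCcccctgggca

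These matches were not rare for 3′-UTRs of this size. Of the 19175 gene entries with a 3′-UTR, 4.05% held the 7-base match and 21.0% the 6-base match, and of the 223 whose 3′-UTR was 6000 to 9000 bases long, as that of Igf1r is, 22.4% held the 7-base match. A match is a description of letters and not a measured site.

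The members spanned a wide range of levels. In WT total RNA, levels per kb of exon were led by Igfbp7, at 1251 CPM per kb in replicate A and 749.1 in replicate B, and by Igfbp2, at 497 and 402.6 CPM per kb. Both exceeded every other member, and their ranges did not overlap each other. Igfbp7 is a low-affinity IGF binder secreted into the matrix, and Igfbp2 is a major fetal and renal binding protein. Igf1r came next with a mean of 27.3 CPM per kb, followed by Igfbp5 (21.4), Igfbp6 (13.3), Igf2r (8.55), Igf1 (6.41), Igfbp3 (1.87) and Igfbp4 (0.938), and from Igf1r downward each gene's replicates overlapped those of the next in this order. In miR-379KO total RNA the order was the same except that Igfbp3 (5.46 CPM per kb) stood above Igf1 (4.37), with replicates that did not overlap. Igfbp7 and Igfbp2 together made up 84.7% to 98.6% of the counts on the 6 binding protein genes in total RNA and 95.2% to 99.5% in AGO2-IP, with the lowest share in the WT B total RNA library, where Igfbp5 alone had 4203 counts.

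**Figure D1:**
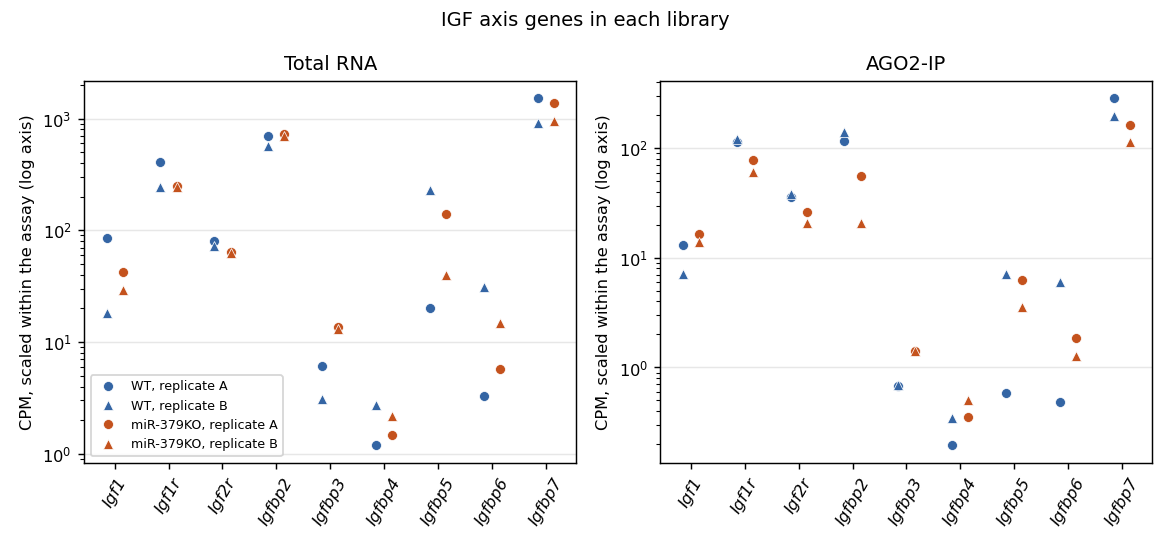
Levels of the 9 IGF axis genes in each library, as CPM scaled within the assay on a log axis, for total RNA (left) and AGO2-IP (right), with colour for genotype and shape for replicate. Of the genes tested, Igfbp3 and Igf2r show genotypes apart in total RNA, as 19.0% of all genes do. In AGO2-IP, Igfbp2, Igfbp3, Igfbp7, Igf1, Igf1r and Igf2r do so, as do 68.3% of all genes. Igfbp5 and Igfbp6, and Igf1 in total RNA, differ mainly between replicates A and B.

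For Igf1, Igfbp5 and Igfbp6 the replicates of one genotype differed more than the genotypes did. Igfbp5, a binding protein that also attaches to matrix, had 340 counts in WT A and 4203 in WT B of total RNA, which came to 20.3 and 229.9 CPM. In miR-379KO it ran the other way, with 3203 counts (139.2 CPM) in A and 676 (39.7 CPM) in B. Replicate B over A was thus 11.3 in WT (95% counting interval 10.2 to 12.7) and 0.285 in miR-379KO (0.262 to 0.310). The AGO2-IP libraries showed the same contrast in direction, with a ratio of 12.2 (5.29 to 34.4) in WT from 6 and 62 counts and of 0.565 (0.345 to 0.908) in miR-379KO from 54 and 28. A gene of its exon length without total RNA counts would have received 7.86 and 5.32 counts in WT AGO2-IP. In the miR-379KO AGO2-IP libraries it would have received 17.9 and 20.5, so these ratios rest partly on that level. These intervals are exact binomial ones and cover counting error only.

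Igfbp6, a binding protein that prefers IGF2, had 55 and 567 counts in the WT total RNA libraries A and B (3.28 and 31.0 CPM) and 132 and 252 in miR-379KO (5.74 and 14.8 CPM). Its B over A ratio was 9.46 (7.16 to 12.7) in WT total RNA and 12.3 (4.93 to 39.3) in WT AGO2-IP, where it had 5 and 52 counts. In miR-379KO the ratio was 2.58 (2.08 to 3.21) in total RNA, while in AGO2-IP it was 0.681 with an interval of 0.276 to 1.60 that included no difference. Replicate differences of this size were uncommon, since 85 of 10720 genes whose mean count was 50 or more (0.793%) differed more than 8-fold between the WT total RNA replicates.

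Igf1 differed in the opposite sense, with 1447 counts in WT A but 334 in WT B (86.3 and 18.3 CPM), and 966 and 498 counts (42.0 and 29.2 CPM) in the miR-379KO replicates. Its B over A ratio was 0.212 (0.187 to 0.239) in WT total RNA and 0.541 (0.394 to 0.736) in WT AGO2-IP. In miR-379KO it was 0.696 (0.624 to 0.777) in total RNA and 0.844 (0.652 to 1.09) in AGO2-IP. Replicate A was the higher in all 4 pairs, although the last interval included no difference.

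Other cell type markers also differed between these replicates. Tubule markers summed to 2.09 and 26.9 CPM in WT A and B of total RNA and to 13.7 and 8.22 CPM in miR-379KO, the same order over the 4 libraries as Igfbp5. Between 2 and 3 of 5 tubule markers had counts in each, nearly all on Lrp2, while Slc34a1 and Umod, which define proximal tubule and thick limb, were at 0 in all 4. Podocyte markers summed to 628.1 and 240.2 CPM in WT and 569.9 and 328.6 CPM in miR-379KO, the same order as Igf1. Igfbp6 ran in neither of these orders. Of the 8 mesangial and pericyte markers only Des is given alone. At 107.4 and 790.1 CPM in WT and 217.3 and 132.2 CPM in miR-379KO, it ran in the same order as Igfbp5. The mesangial and pericyte markers as a set did not. They summed to 11330.5 and 15065.3 CPM in WT A and B of total RNA and to 17913.5 and 16905.2 CPM in miR-379KO. The part of cell makeup in these replicate differences was not tested, and in bulk RNA fewer cells of a type and less RNA per cell cannot be told apart.

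**Figure D2:**
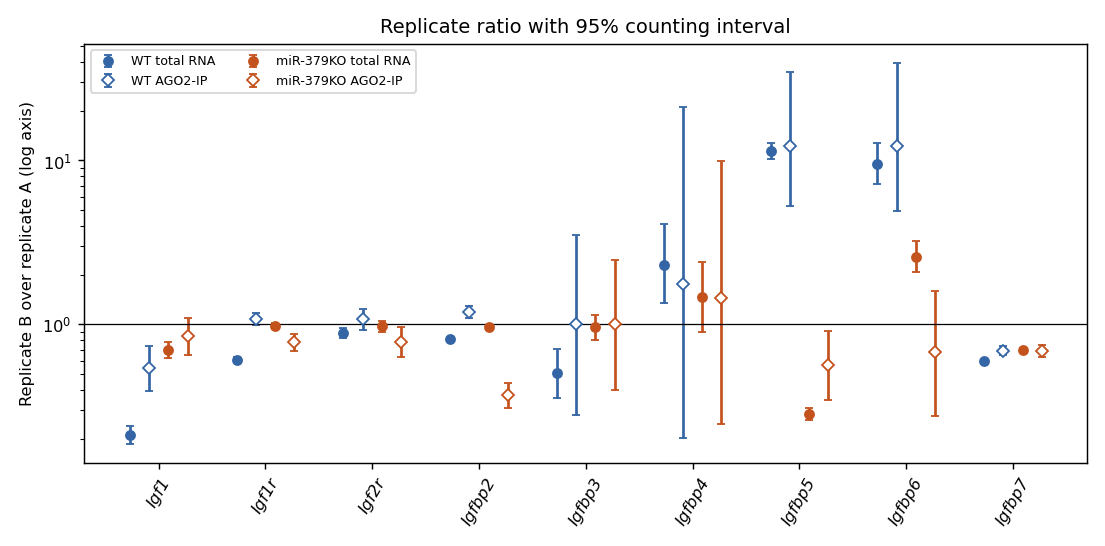
Replicate B over replicate A for each gene in each of the 4 groups, on a log axis, with bars for the 95% counting interval and a line at 1. Igfbp5 and Igfbp6 lie near 10 in both WT assays, Igf1 lies below 1 in WT, and Igfbp2 lies at 0.369 in miR-379KO AGO2-IP only.

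In total RNA the gene with the largest genotype difference of the 9 was Igfbp3, the main IGF carrier in blood. WT A and B held 102 and 56 counts of it and the miR-379KO libraries 314 and 223, which came to 6.08 and 3.06 CPM against 13.6 and 13.1 CPM. Both miR-379KO libraries were higher than both WT libraries, and the WT replicates differed 1.98-fold. The log2 difference was 1.55 ± 0.38 (SE, n = 2 a group), a 2.93-fold higher level in miR-379KO, and it ranged from 1.14 to 2.13 over the alternatives, the lowest without WT B and the highest without WT A. Set within libraries, Igfbp3 had 0.00401 and 0.00337 counts for each count of Igfbp7 in WT and 0.00986 and 0.0136 in miR-379KO. These ratios use the same Igfbp3 counts that chose the gene and are no separate support.

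Igfbp2 hardly differed by genotype in total RNA, with 704.8 and 570.9 CPM in WT and 730.0 and 700.6 CPM in miR-379KO, from 10436 to 16797 counts a library. The log2 difference was 0.17 ± 0.25, and the groups overlapped. Igfbp7 had 1518 and 908.6 CPM in WT and 1385 and 960.5 CPM in miR-379KO, with a log2 difference of −0.05 ± 0.36. Its replicates overlapped fully between genotypes, and replicate A exceeded B in both.

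The receptor genes gave small negative values in total RNA. Igf1r had 407.1 and 246.5 CPM in WT against 250.9 and 245.8 CPM in miR-379KO, a log2 difference of −0.40 ± 0.30 with overlapping groups, and the value was 0.01 without WT A. Igf2r had 81.0 and 71.7 CPM in WT against 63.8 and 62.1 CPM in miR-379KO, a log2 difference of −0.28 ± 0.20 without overlap of the groups. The remaining genes varied too much between replicates to give a direction: Igf1 at −0.55 ± 0.69, Igfbp4 at −0.11 ± 0.57 from 20 to 50 counts a library, Igfbp5 at −0.48 ± 1.12 and Igfbp6 at −0.75 ± 1.01. Without WT A of total RNA, the differences of Igf1 and Igfbp4 were 0.97 and −0.59, and those of Igfbp5 and Igfbp6 were −1.36 and −1.60. Without WT B they were −1.27 and 0.60, and 2.14 and 1.64.

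No gene passed an adjusted p of 0.05 in total RNA by edgeR's quasi-likelihood test (0 of 12318, 0%), nor by DESeq2, and 91 genes had an unadjusted p under 0.05. By the cutoff the study used, a 1.5-fold difference with an unadjusted p under 0.05, 41 genes were higher in miR-379KO (0.333%), and Igfbp3 was the only member among them. Replicates did not overlap between genotypes for 2 of the 9 members, Igfbp3 and Igf2r, against 19.0% of all genes tested. Since this contrast entered the choice of genes, nothing is read from these shares.

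In AGO2-IP, Igfbp2 was the member with the largest genotype difference, in the opposite direction to Igfbp3 in total RNA. WT A and B held 1199 and 1213 counts of it against 481 and 163 with miR-379 deleted, which came to 117.1 and 139.5 CPM against 56.2 and 20.7 CPM. Both miR-379KO libraries lay below both WT libraries, and they differed from each other 2.71-fold, the largest replicate difference Igfbp2 showed in any group. The log2 difference was −1.74 ± 0.37, a 3.33-fold lower level. Without a given library it ranged from −2.70 (without miR-379KO A) to −1.21 (without miR-379KO B).

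A ratio within a library does not depend on scaling between libraries. Igfbp2 had 0.411 and 0.709 counts for each count of Igfbp7 in WT AGO2-IP and 0.343 and 0.183 in miR-379KO AGO2-IP. In total RNA the WT ratios were 0.464 and 0.628 and those of miR-379KO 0.527 and 0.729. In 3 of the 4 groups replicate B was the higher, and in miR-379KO AGO2-IP it was the lower. These ratios use the same Igfbp2 counts that chose the gene and are no separate support. Igfbp7 was itself lower in miR-379KO AGO2-IP, as given next, so it is not a fixed reference.

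Igfbp7, Igf1r and Igf2r were also lower in miR-379KO AGO2-IP, by smaller amounts. Igfbp7 had 284.7 and 196.7 CPM in WT against 163.9 and 113.5 CPM in miR-379KO, a log2 difference of −0.80 ± 0.30. Igf1r had 112.8 and 121.8 CPM in WT against 77.6 and 60.3 CPM, a log2 difference of −0.77 ± 0.26, from 1155, 1059, 665 and 474 counts. Igf2r had 35.5 and 38.1 CPM in WT against 26.3 and 20.6 CPM, a log2 difference of −0.65 ± 0.23. For each of these genes the groups did not overlap. Igf1r and Igf2r kept their proportion to each other in AGO2-IP, at 3.17 and 3.20 counts of Igf1r per count of Igf2r in WT and 2.96 and 2.93 in miR-379KO, while in total RNA the WT libraries had 5.03 and 3.44 and the miR-379KO libraries 3.93 and 3.96.

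Igf1 had 16.6 and 13.99 CPM in miR-379KO AGO2-IP against 13.2 and 7.13 CPM in WT, with a log2 difference of 0.58 ± 0.26. Igfbp3 rested on 7 and 6 counts in WT against 12 and 11 in miR-379KO, 0.684 and 0.690 CPM against 1.40 and 1.40 CPM, a log2 difference of 1.01 ± 0.46. In both genes the groups did not overlap, but neither was called. Igfbp5, at 0.42 ± 1.31, and Igfbp6, at −0.97 ± 1.36, differed too much between replicates to give a direction.

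The low AGO2-IP counts must be set beside what silent genes received. A gene of Igfbp3's exon length without any total RNA counts would have received 3.28 and 2.22 counts in the WT libraries and 7.50 and 8.56 in the miR-379KO libraries, that is 46.9% and 37.0% of its WT counts and 62.5% and 77.8% of its miR-379KO counts. What remained of Igfbp3 was 3.72 (WT A), 3.78 (WT B), 4.50 (miR-379KO A) and 2.44 (miR-379KO B) counts, with overlapping groups. For Igfbp4, with 2, 3, 3 and 4 counts, that level exceeded the count in 3 of the 4 libraries. For Igf1 it was 8.10% to 25.9% of the counts, and subtracting it moved the log2 difference from 0.58 to 0.39. For Igfbp2 it was at most 3.04%, and the log2 difference became −1.76. After subtraction Igfbp7, Igf1r and Igf2r stood at −0.80, −0.85 and −0.85, and Igfbp6 at −1.55 in place of −1.04 before it, both computed from mean CPM, while Igfbp3, Igfbp4 and Igfbp5 were left with 3 counts or fewer in at least 1 library and gave no value.

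**Figure D3:**
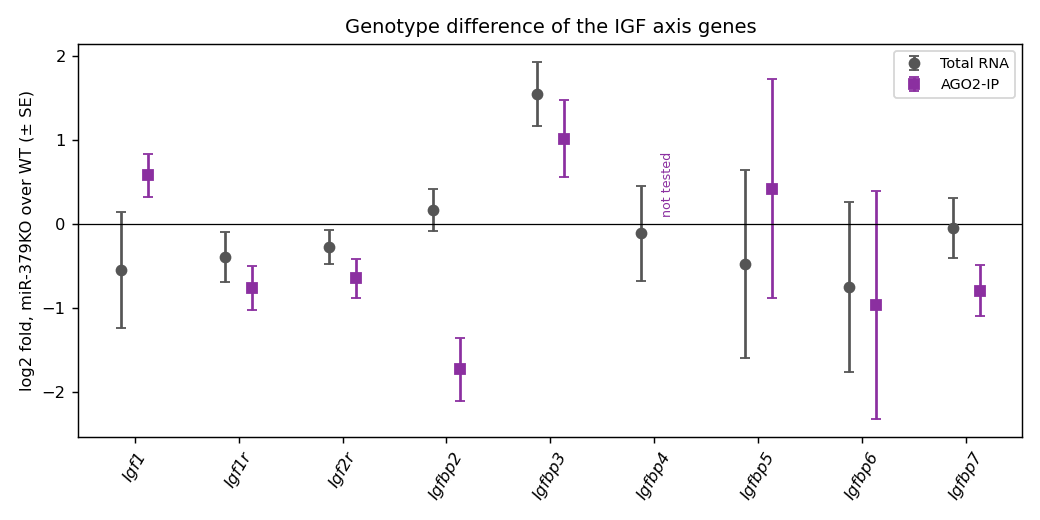
log2 difference of miR-379KO from WT for each gene, with the standard error of the fit, in total RNA (circles) and AGO2-IP (squares). Igfbp3 stands at 1.55 in total RNA and Igfbp2 at −1.74 in AGO2-IP, Igfbp4 was not tested in AGO2-IP, and the bars of Igfbp5 and Igfbp6 span 0 in both assays.

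Of the 8 members tested in AGO2-IP, 4 passed an adjusted p of 0.05 as lower (Igfbp2, Igfbp7, Igf1r and Igf2r) and none as higher, against 9.51% and 21.3% of all 13500 genes tested. Groups did not overlap for 6 of the 8, against 68.3% of all genes tested. Nothing is read from these shares or from any call of a member by genotype, here and below, since the contrast entered the choice of genes. Across all genes the calls followed the level in total RNA: of 3651 genes with a mean above 1000 total RNA counts, 26.3% were called lower and 0.192% higher with a median log2 difference of −0.45, and of 996 genes without total RNA counts 88.3% were called higher. Igfbp2, Igfbp5, Igfbp7, Igf1r and Igf2r belong to the former set. The calls of Igfbp7, Igf1r and Igf2r were lost without WT A, without WT B and without miR-379KO B, with values between −1.15 and −0.50 when a library was left out. They were also lost with a mean of at least 50 counts, where the values were the smallest (−0.44, −0.40 and −0.28), with the replicate letter as a block, with all 8 libraries in one fit and, for Igfbp7 and Igf2r, by DESeq2. With scaling factors taken from genes with at least 100 mean counts in total RNA, an alternative added after the data were seen, they stood at −0.56, −0.52 and −0.40 and were not called. The call of Igfbp2 was lost by DESeq2 and when genes under a mean of 50 counts were left out.

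The difference between the genotype changes in AGO2-IP and in total RNA was largest in size for Igfbp2 among the members, at −2.12 ± 0.52 on the log2 scale, followed by Igfbp7 at −0.98 ± 0.48. For Igfbp3 it was −0.76 ± 0.63, for Igf1r −0.60 ± 0.40 and for Igf2r −0.59 ± 0.33. Over all 17421 genes, edgeR called no gene for this difference (0 genes, 0%), with 2731 at an unadjusted p under 0.05, while DESeq2 called 120. An alternative also added after the data were seen took the replicate letter within each genotype as a block shared by both assays. It called 1093 genes.

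AGO2-IP was next compared with total RNA within each genotype, a contrast that the choice of genes did not use. Igfbp2 and Igfbp3 were picked for differences that rest on the same libraries, so their values are again a description without a p-value, and the other 7 members were tested. A gene was called where the adjusted p by edgeR's quasi-likelihood test over all genes was under 0.05 and the difference at least 2-fold. Assay and library protocol changed together here, so AGO2 recovery and library chemistry cannot be told apart.

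In WT, both receptor mRNAs were called higher in AGO2-IP and no member lower. The median log2 difference of all genes tested was 0.49, and Igf1r and Igf2r stood at percentiles 60.2 and 64.8 of all genes. Igf2r was 2.73-fold higher, with a log2 difference of 1.45 ± 0.24 (adjusted p = 0.000142), and it was called under all 16 alternatives. Igf1r was 2.06-fold higher, at 1.04 ± 0.28 (adjusted p = 0.00556), just past the 2-fold bound. Its value ranged from 0.65 to 1.28 over the alternatives. The call of Igf1r was lost without WT B of total RNA and without any one of the 4 AGO2-IP libraries, and also by DESeq2 and with RLE factors. Igfbp7 at 0.19 ± 0.34 and Igf1 at 0.20 ± 0.72 did not pass, with adjusted p of 0.671 and 0.840, and Igfbp2 stood at 0.19 ± 0.36. Igfbp5 had the lowest value, −2.64 ± 1.80 with an adjusted p of 0.291. Its replicates differed alike in both assays, as given above, and with the letter within each genotype as a block it was called lower, at −2.58. Igfbp3, Igfbp4 and Igfbp6 lay between −0.42 and −0.02 in the fit without a block. The 2 called higher of the members tested stood against 35.7% of all 17421 genes tested, and the 0 called lower against 7.31%.

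In miR-379KO none of the members tested was called, and the median of all genes was 0.47. Igfbp2 had a log2 difference of −1.92 ± 0.38, a 3.79-fold lower level in AGO2-IP, and ranged from −2.83 to −1.37 over the alternatives. These are the libraries whose Igfbp2 values chose it, and nothing further is read from them. Igfbp3 stood at −0.97 ± 0.41. Igfbp7 at −0.80 ± 0.34 (adjusted p = 0.0456) stayed under 2-fold and was called in 2 of 16 alternatives. Igf2r at 0.86 ± 0.24 (adjusted p = 0.00402) also stayed under 2-fold and was called in 5 of 16. Igf1 at 1.06 ± 0.71 (adjusted p = 0.239) was called in 4 of 16, among them DESeq2 and both replicate blocks, while Igf1r at 0.44 ± 0.28 (adjusted p = 0.177) was called in none. Igfbp5, at −1.90 ± 1.74 (adjusted p = 0.387), was called lower with the letter within each genotype as a block, at −1.76. None of the members tested passed as lower, against 19.3% of all genes, or as higher, against 41.6%.

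**Figure D4:**
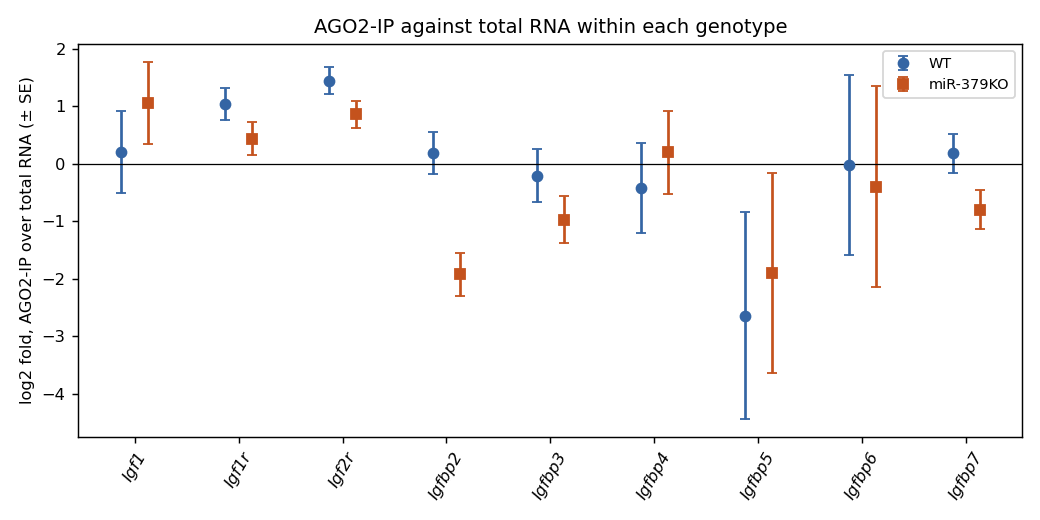
log2 difference of AGO2-IP from total RNA for each gene within WT and within miR-379KO, with the standard error of the fit. In WT, Igf1r and Igf2r stand above 1 and Igfbp2 and Igfbp7 at 0.19, whereas in miR-379KO Igfbp2 stands at −1.92 and the receptors are below 1.

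Exon length ran with this contrast across all genes. Among genes with a mean above 1000 total RNA counts, the WT median log2 difference was −1.08 for the 730 with up to 2 kb of exon, of which 0% were called higher, and 0.53 for the 322 with over 8 kb, of which 23.9% were called higher. In miR-379KO these medians were −1.99 and 0.18, and 95.8% of the shorter set were called lower. Igf1r and Igf2r have 11978 and 8929 bases of exon and are the longest members, whereas Igfbp2 and Igfbp7 have 1418 and 1213 and are among the 3 shortest. Igfbp2 stood at 0.19 in WT and −1.92 in miR-379KO, where the medians of the shorter set were −1.08 and −1.99. For Igfbp2 this is a description only, and beyond the bound of 1000 counts the set was not matched by level. Igfbp7 was above the median of the shorter set in both genotypes, at 0.19 and −0.80. The part of length in the members' values was not tested further.

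Igfbp2 and Igfbp5 are neighbours in the genome, converging from opposite strands with 5.6 kb between them, at chr1:72824480-72852474 on the plus strand and chr1:72858065-72874865 on the minus strand of GRCm38.p6. Their levels did not run together. Igfbp5 had 0.0288 and 0.403 counts per count of Igfbp2 in WT total RNA and 0.191 and 0.0567 in miR-379KO. Igfbp3, at chr11:7206086-7215498 on the minus strand, lies 3.5 kb from Igfbp1 at chr11:7197787-7202546 on the plus strand. Igfbp1 was at 0 counts in all 4 total RNA libraries, where 3 counts a library is the limit that a count of 0 allows, and at 1, 0, 11 and 1 in AGO2-IP.

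Beyond the members, 49 other genes of the pathway were examined, as other ligands, receptors and carriers, IGFBP proteases and their inhibitors, signalling below IGF1R, IGF2 mRNA-binding proteins, and mannose 6-phosphate sorting with IGF2R. Ins1, Ins2 and Igfbp1 had 0 counts in every total RNA library. In total RNA none of the 41 tested passed by edgeR (median log2 difference −0.06, all genes −0.01), with 0 at an unadjusted p under 0.05 and 0 called by DESeq2. The lowest unadjusted p-values belonged to Igf2bp3, an IGF2 mRNA-binding protein gene, at −1.26 ± 0.60, and to the protease gene Adam12, at −0.42 ± 0.21. Of the positive values, that of Htra1, a secreted IGFBP protease, was 0.37 ± 0.26, and each of these 3 had an adjusted p of 0.9997. The 24 genes of signalling below IGF1R lay between −0.46 and 0.24.

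In AGO2-IP, 3 of the 44 pathway genes tested rose in miR-379KO and 4 fell, against 21.3% and 9.51% of all genes tested, with a median of −0.20 (all genes −0.01). Stanniocalcin Stc1, an inhibitor of the pappalysin proteases, rose by 2.58 ± 0.55 (adjusted p = 0.00176), Igf2 by 2.27 ± 0.52 (adjusted p = 0.00296) and Pappa2, a pappalysin that cleaves IGFBP3 and IGFBP5, by 1.34 ± 0.36 (adjusted p = 0.00757). All had low counts, close to what silent genes of their length received. WT libraries held 3 and 2 counts of Stc1 and miR-379KO libraries 11 and 16, where the silent-gene level came to 5.02, 3.40, 11.5 and 13.1. For Igf2 the counts were 3 and 3 against 16 and 10, beside 6.08, 4.11, 13.9 and 15.8. For Pappa2 they were 15 and 14 against 34 and 30, beside 12.04, 8.15, 27.5 and 31.4. Each of these 3 genes had a mean under 50 counts in AGO2-IP. They were therefore not tested in the alternative that required a mean of at least 50 counts.

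The 4 that fell were Pappa, the pappalysin that cleaves IGFBP4, by 0.75 ± 0.24 on the log2 scale (adjusted p = 0.0218), the protease gene Adam9 at −0.69 ± 0.25 (adjusted p = 0.0403), and the adaptor genes Grb10 at −0.69 ± 0.26 (adjusted p = 0.0467) and Shc1 at −0.57 ± 0.22 (adjusted p = 0.0494). Their number was close to the 9.51% of all genes called lower, and nothing about the pathway is read from it. Adam9, Grb10 and Shc1 had a mean above 1000 total RNA counts, a set of which 26.3% were called lower. By DESeq2, with a mean of at least 50 counts, or with all 8 libraries in one fit, none of the 7 calls was made, and without a given library 1 to 6 pathway genes were called, the fewest without miR-379KO B and 4 without miR-379KO A. Of the insulin and IGF receptor pair, Insr, whose 3′-UTR also holds the 7-base match, stood at −0.47 ± 0.22 (adjusted p = 0.112) beside −0.77 for Igf1r. Foxo1 and Igf2bp1, the other pathway genes with that match, were at −0.20 ± 0.25 and −0.01 ± 0.48, with adjusted p of 0.578 and 0.990.

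In WT, 8 of 45 pathway genes were called higher in AGO2-IP, against 35.7% of all genes, and 1, Grb2, lower, against 7.31%. Insr, 1 of the 8, was higher at 1.38 ± 0.26 (adjusted p = 0.000435), as both IGF receptors were, and stood at percentile 64.0 of all genes. It has 9391 bases of exon, and genes with longer exons ran higher in this contrast, as given above. In miR-379KO, 7 were called higher, against 41.6% of all genes, and 9 lower, close to the 19.3% of all genes. Of the 9, 7 belonged to signalling below IGF1R, a list with 24 of the 45 genes tested: Shc1, Grb2, Grb10, Pik3r2, Akt1, Akt2 and Rheb, between −2.00 and −1.04. They have 1521 (Rheb) to 5233 (Grb10) bases of exon. Of all genes with a mean above 1000 total RNA counts, 95.8% with up to 2 kb were called lower. This share was 73.0% for over 2 to 4 kb and 23.0% for over 4 to 8 kb. Nothing about the pathway is read from the 7. For the difference between the 2 genotype changes, 0 of 45 passed by edgeR or DESeq2, with 4 at an unadjusted p under 0.05, while 3 passed without WT B of total RNA and 1 with the letter within each genotype as a block.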

How the data were processed

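Per the labels and the study's methods, TopHat placed reads on mm10 and HTSeq 0.6.0 counted them per RefSeq gene with strand, and the values used here are the whole-number counts the authors deposited, not normalized. The 20 entries with the symbol NA (0.000369% to 0.00209% of counts) were left out. Counts were fitted with edgeR 4.0.16 in R 4.3.3 (TMM factors, filterByExpr with a minimum count of 10, robust quasi-likelihood F-test, Benjamini-Hochberg adjustment over all genes tested): the genotype contrasts on the 4 libraries of an assay, the others on all 8 with 4 group means. SE is the log2 difference over the square root of F. DESeq2 1.42.0, other scaling and filters, a replicate block and leaving out each library were alternatives. The fits were tested on simulated data with the same spread set for all genes and large seeded changes. That does not show how they perform at the replicate spread seen here. Counting intervals are 95% exact binomial. Exons and 3′-UTRs came from RefSeq on GRCm38.p6, where 98.9% of entries matched. Members and lists were chosen with earlier results of these data known. All members are named, and of the pathway list those past the threshold, or else those with the lowest p.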

Additional observations from a re-analysis of the deposited data

How the results depend on the processing

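The members' values in the genotype contrasts rest on 2 libraries a group, and AGO2-IP depth outside Rn45s and Lars2 limits Igfbp3, Igfbp4, Igfbp5 and Igfbp6. The number of genes called in AGO2-IP by genotype was 4159 and moved to 827 by DESeq2, 273 with a mean of at least 50 counts, 678 with all 8 libraries in one fit, and 1001 to 3198 with a library left out, the fewest without miR-379KO B. Of the calls 69.1% were higher, and 89.8% with scaling from genes with total RNA counts, 53.9% without a filter. Between assays the mean of at least 50 counts gave 1829 calls in WT (7499) and 3380 in miR-379KO (10618), and no filter gave 16148 in miR-379KO. For the difference of the genotype changes (0 calls), DESeq2 gave 120, the mean of at least 50 counts 2, the replicate block 8, the replicate block within each genotype 1093, scaling from genes with total RNA counts 5, and leaving out a library 0 to 1559, the most without WT B of total RNA. The cause was not tested. No library left out gave a call in total RNA (0 to 0).

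Uncalled differences between assays changed sign. With a library left out, the WT values ran from −0.26 to 0.20 for Igfbp2, −0.57 to 0.19 for Igfbp3, −1.15 to 0.40 for Igfbp4, −5.58 to 0.13 for Igfbp5, −2.97 to 2.51 for Igfbp6, −0.35 to 0.43 for Igfbp7 and −0.58 to 1.51 for Igf1, and the miR-379KO values from −0.082 to 0.44 for Igfbp4 and −0.96 to 0.33 for Igfbp6. Igfbp6 also became positive in WT with a mean of at least 50 counts (0.15), the replicate block (0.13) and scaling from genes with total RNA counts (0.17), and in miR-379KO under the first (0.12) and the last (0.15). The replicate letters are not stated to pair samples. The correlation of A less B between genotypes was −0.07 over 10762 genes in total RNA and 0.04 over 4971 in AGO2-IP, while between the assays of one genotype it was 0.22 in WT and 0.19 in miR-379KO and between total RNA of miR-379KO and AGO2-IP of WT it was 0.18. With the letter as replicate block 3819 genes were called in AGO2-IP by genotype, Igfbp2 the only member among them.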
